A study of Homo sapiens with 5 samples.

Results

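miR-155, the miR-146 family and miR-21 are microRNAs known for their response to immune activation, and 5 features of the panel detect them. These are hsa-miR-155, hsa-miR-146a, hsa-miR-146b-5p, hsa-miR-146b-3p and hsa-miR-21. They were chosen by name and make up 5 of the 654 human miRNA features that were counted. Total RNA of 5 established hematopoietic cell lines was hybridized on the nCounter system, which counts color-coded reporter molecules one by one with no amplification. The input was 100 ng of RNA extracted with Trizol, with 1 sample per line, and the labels name no treatment of the cells. Jurkat is a T-cell leukemia line, Raji a B-cell lymphoma line that carries Epstein-Barr virus, and U937 a monocytic line. K562 is an erythroleukemic line and Meg-01 a megakaryoblastic line.

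A microRNA is loaded into an Argonaute protein and lowers the output of mRNAs that pair with its seed, the bases near its 5′ end. In lymphocytes and myeloid cells, Toll-like receptor, antigen receptor and NF-kB signals induce transcription of the miR-155 host gene and of miR-146a. miR-155 is known to favor immune activation, miR-146a restrains the same signals through the adaptors IRAK1 and TRAF6, and miR-21 is induced by AP-1 and STAT3 and represses PDCD4.

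The mature sequences are shown because the seed decides which miRNAs can share targets and because closely related miRNAs can be hard to separate by hybridization. They come from RefSeq (GRCh38.p14), where all 5 features were matched, with names that give no arm taken as the 5p form, and they are written 5′ to 3′ with the seed (bases 2 to 8) in capitals. miR-155 lies at chr21:25573983-25574006 on the plus strand, within the host gene MIR155HG. No other mature miRNA of that table has its seed.
hsa-miR-155: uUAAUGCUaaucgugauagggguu
The next pair shares a seed, which miR-7153-5p, not on the panel, also has. miR-146a lies at chr5:160485372-160485393 within MIR3142HG and miR-146b-5p at chr10:102436520-102436542, both on the plus strand. The 22 bases that can be compared are identical at 20, and the differences are G18A and U21C, with the base of miR-146a first and positions counted from 1 at the 5′ end.
hsa-miR-146a: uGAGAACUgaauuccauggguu
hsa-miR-146b-5p: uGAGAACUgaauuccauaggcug
The other arm of the miR-146b hairpin, at chr10:102436557-102436578 on the plus strand, has a seed that differs from those of the other members.
hsa-miR-146b-3p: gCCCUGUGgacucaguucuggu
miR-21 lies at chr17:59841273-59841294 on the plus strand within VMP1. It shares its seed with miR-590-5p (chr7:74191213-74191234, plus strand), which has a feature on the panel and serves here as a relative outside the 5.
hsa-miR-21: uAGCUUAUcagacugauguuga
hsa-miR-590-5p: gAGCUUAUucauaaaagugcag

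Counts summed over the human features were 66892 in Raji, 94027 in U937, 130048 in Jurkat, 109731 in Meg-01 and 105224 in K562. Raji thus had the fewest counts, while its 6 positive controls summed to 22360, within the range of 19329 to 26631 of the 5 lines. Background was read from 8 negative control probes per line, whose mean raw count was 23.1 in Raji, 20.9 in U937, 22.8 in Jurkat, 20.4 in Meg-01 and 20.3 in K562. A miRNA was called above background when it exceeded the mean plus 2 SD of those probes, which is a raw count of 45.9, 34.9, 35.0, 42.1 and 34.6 in the same order of lines. Normalized counts are raw counts multiplied by a factor per line (1.58, 1.04, 0.805, 0.741 and 1.22, again in this order), set by the geometric mean of the 100 highest miRNAs. Intervals given below are 95% intervals that cover counting error alone. They leave out variation between cultures, RNA preparations and lanes and the error of the negative controls, and with no replicates no difference between lines was tested. Fewer expressing cells and less miRNA per cell cannot be told apart in such samples.

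Of the 25 values (5 miRNAs in 5 lines), 14 were above background. miR-21 was above background in all 5 lines, miR-155 and miR-146a stood well clear of it in Raji and U937, and both arms of miR-146b stayed at or near it in every line. The number of the 5 miRNAs above background was 4 in Meg-01, 3 each in Raji, U937 and Jurkat, and 1 in K562. Of all 654 human features 27.2% were above background in Meg-01, 17.0% in Raji, 28.3% in U937, 35.0% in Jurkat and 27.5% in K562. In 11 of the 14 the whole counting interval lay above the threshold. With the bare mean of the negative controls as threshold all 25 values pass, and with the 95th percentile of other virus probes 13 do, so the count depends on the margin asked for.

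**Figure D1:**
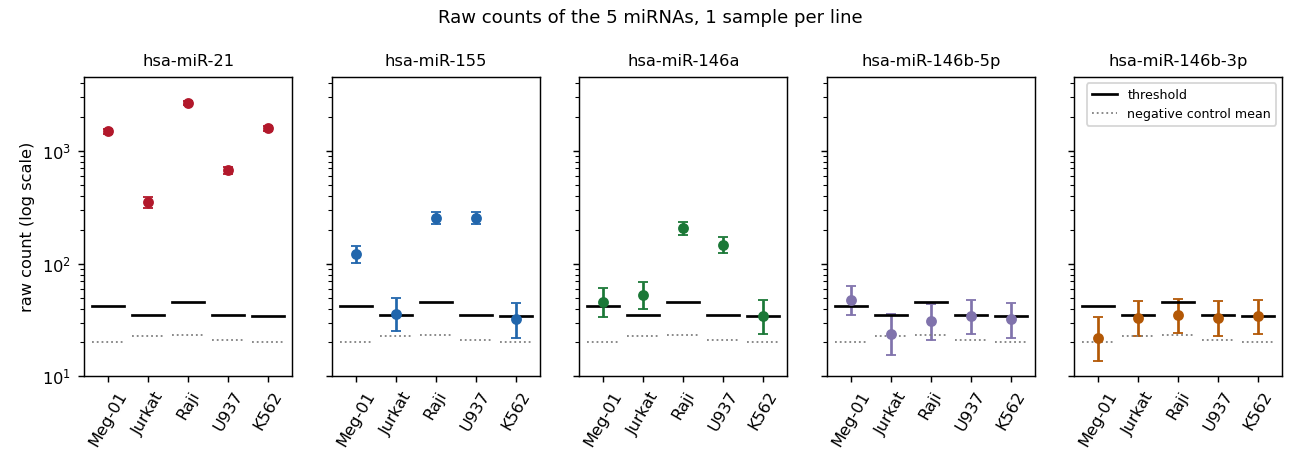
Raw counts (log scale) of the 5 miRNAs in the 5 lines, 1 sample each, with exact 95% Poisson intervals as bars. The solid line marks the background threshold of each line and the dotted line its negative control mean; miR-21 lies above the threshold throughout, from 350 in Jurkat to 2643 in Raji, and miR-146b-3p lies under it throughout.

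miR-155, the activating member, had a raw count of 254 (224 to 287) in Raji, 253 (223 to 286) in U937, 36 (25.2 to 49.8) in Jurkat, 121 (100 to 145) in Meg-01 and 32 (21.9 to 45.2) in K562. These are 11.0, 12.1, 1.58, 5.94 and 1.58 times the negative control mean of the line. Raji and U937 were high, Meg-01 was intermediate, and Jurkat and K562 could not be separated from background at this depth. In normalized counts the values were 401, 264, 29.0, 89.7 and 39.1, and after subtraction of the threshold 329 in Raji, 228 in U937, 0.789 in Jurkat and 58.5 in Meg-01, with nothing left in K562. miR-155 ranked 26 among the detected human miRNAs of Raji, 39 in U937 and 74 in Meg-01. It made up 0.433%, 0.282% and 0.0868% of their subtracted counts.

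Folds between lines are ratios of subtracted normalized counts, and a line whose subtracted value is under its threshold enters at the threshold, so that the fold is then a lower bound for subtracted counts, though not for counts before subtraction. Its counting limit puts the higher line at the low end of a counting interval and the lower line at the high end, or at the threshold if that is higher. For folds and their limits these intervals are wider than those printed for single counts, so that both hold together with at least 95%. For miR-155 the bound of Raji was 11.7 over Jurkat and 7.76 over K562, with counting limits of 9.73 and 6.48. For U937 it was 8.07 and 5.38 over the same 2 lines, with limits of 6.80 and 4.53. Against Meg-01, Raji was 5.62-fold (3.49 to 9.43) and U937 3.89-fold (2.44 to 6.48) higher. The B-cell and the monocytic line thus both stood above the megakaryoblastic one. Their own order depended on scaling, with Raji 1.44-fold (1.03 to 2.03) above U937 in normalized counts, nearly equal raw counts (ratio 1.0, 0.840 to 1.20), and U937 the higher line with positive control or housekeeping scaling and with the deposited signals.

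miR-146a, which restrains the same pathway, had a raw count of 206 (179 to 236) in Raji, 147 (124 to 173) in U937, 53 (39.7 to 69.3) in Jurkat, 46 (33.7 to 61.4) in Meg-01 and 34 (23.5 to 47.5) in K562. Over the negative control mean this was 8.91, 7.04, 2.33, 2.26 and 1.68 times. Raji and U937 were again the high lines, Jurkat lay just above background, the interval of Meg-01 covered the threshold, and K562 did not reach it. The normalized counts were 325, 153, 42.7, 34.1 and 41.6, and the subtracted ones 253 in Raji, 117 in U937, 14.5 in Jurkat and 2.89 in Meg-01. Its rank was 29 in Raji, 52 in U937 and 129 in Jurkat.

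Raji exceeded U937 2.16-fold (1.38 to 3.41) for miR-146a, and the raw counts gave 1.40-fold (1.13 to 1.74) before scaling and subtraction. The subtracted counts of the 2 lines were 172 and 140 with positive control scaling and 151 and 143 with housekeeping scaling, so the size of this difference rests on the scaling. Entered at the threshold, Jurkat gave a fold of 8.96 for Raji, Meg-01 8.10 and K562 5.97, with counting limits of 6.89, 6.54 and 4.82. U937 gave 4.15, 3.75 and 2.76 against the same lines, with counting limits of 3.04, 2.88 and 2.13. Before subtraction the folds over Jurkat were smaller, 7.62 (5.61 to 10.5) for Raji and 3.59 (2.61 to 5.02) for U937. Raji and U937 were thus above the other 3 lines on each of these scales. The order Raji, U937, Jurkat, Meg-01 held under each scaling and threshold tried. Jurkat and Meg-01, neighbors in that order, had overlapping counting intervals.

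hsa-miR-146b-5p gave raw counts of 31 in Raji, 34 in U937, 24 in Jurkat, 48 (35.4 to 63.6) in Meg-01 and 32 in K562. It passed the threshold in Meg-01 alone, by 4.38 normalized counts, with an interval that covered the threshold. hsa-miR-146b-3p gave 35, 33, 33, 22 and 34 in the same order and passed in no line. Neither arm of miR-146b was therefore clearly detectable in any of the 5 lines at this depth. In Raji and U937, where miR-146a reached 206 and 147 counts, the feature for miR-146b-5p read 31 and 34, below the thresholds of 45.9 and 34.9, although the 2 sequences are identical at 20 of 22 bases. Crossed hybridization between the 2 was not tested.

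The features for miRNAs of viruses other than Epstein-Barr virus give a wider view of background, since 46 of them were read in each line. In Jurkat 10 of the 46 were at or above the count of miR-155, and in K562 7 were. For miR-146a 2 of 46 reached its count in Meg-01, 2 in Jurkat and 5 in K562, and for miR-146b-5p in Meg-01 it was 1. None of them reached miR-155 or miR-146a in Raji or U937, or miR-21 in any line. The feature kshv-miR-K12-11, for a herpesvirus miRNA known to carry the seed of miR-155, read 33, 28, 27, 16 and 19 counts in that order of lines, below the threshold in each.

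miR-21 was the most counted of the 5, with a raw count of 2643 (2543 to 2746) in Raji, 673 (623 to 726) in U937, 350 (314 to 389) in Jurkat, 1486 (1411 to 1564) in Meg-01 and 1588 (1511 to 1668) in K562. It stood 114, 32.2, 15.4, 72.9 and 78.4 times over the negative control mean. Raji was highest and Jurkat lowest, with K562 and Meg-01 next to Raji and U937 next to Jurkat. Normalized counts were 4172, 702, 282, 1102 and 1942. It ranked 6 in Raji, 10 in Meg-01 and in K562, 20 in U937 and 38 in Jurkat, and its share of subtracted counts went from 0.281% in Jurkat to 5.40% in Raji.

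miR-21 was 16.2-fold (13.5 to 19.4) higher in Raji than in Jurkat, a fold measured on both sides. Relative to Jurkat, K562 was 7.49-fold (6.19 to 9.10), Meg-01 4.22-fold (3.48 to 5.14) and U937 2.62-fold (2.10 to 3.30) higher. Without scaling the fold of K562 over Jurkat was smaller, from 1553 and 315 subtracted counts. Raji exceeded its nearest neighbor K562 2.16-fold (1.95 to 2.39), and K562 exceeded Meg-01 1.77-fold (1.58 to 2.0). With this scaling all neighbors in the order differed beyond counting error. With housekeeping scaling Raji and K562 were nearly equal, at 2455 and 2433 subtracted counts. In raw counts the order was the same, but K562 and Meg-01 did not differ beyond counting error (ratio 1.07, 0.995 to 1.15).

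Raji carried the largest scaling factor, and folds that involve it depended on the kind of scaling. For miR-21 in Raji over Jurkat, 16.2 became 16.0 with scaling to total human counts and 15.7 with the 100 highest chosen in each line, but 8.25 without scaling, 9.70 with positive control scaling, 8.22 with housekeeping scaling and 7.85 with the deposited signals. The bound for miR-155 became 5.94, 6.99 and 5.92 without scaling and with positive control and housekeeping scaling, and the deposited signals gave 11.7 against a Jurkat count that cannot be separated from background. The bound for miR-146a became 4.57, 5.38 and 4.56 in the same order, and the deposited signals gave 4.98. Raji stayed above Jurkat for all 3 miRNAs. The raw ratio of miR-21 in Raji over K562 was 1.66 and over Meg-01 1.78, both under 2. Of 143 human miRNAs, Raji was the highest line for 33 in normalized counts, 19 after subtraction of the threshold and 9 in raw counts.

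Those 143 human miRNAs had a subtracted count above the threshold in at least 1 line, and 108 of them (75.5%) passed 2-fold between the highest and lowest line, bounds included. Among the 5 miRNAs studied here 3 could be assessed, and all 3 passed. With bounds entered at their value, the median fold was 11.7 over those 3 and 3.24 over the 143. Without subtraction of the threshold 308 miRNAs could be assessed and 49.0% passed, while among the same 143 it was 87.4%. Passing 2-fold was therefore common and sets nothing apart. At least 12 of the 143 had a larger fold than miR-21, as did at least 6 of 15 miRNAs with a mean level within 2-fold of its own. miR-155 and miR-146a have only bounds and were not ranked.

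**Figure D2:**
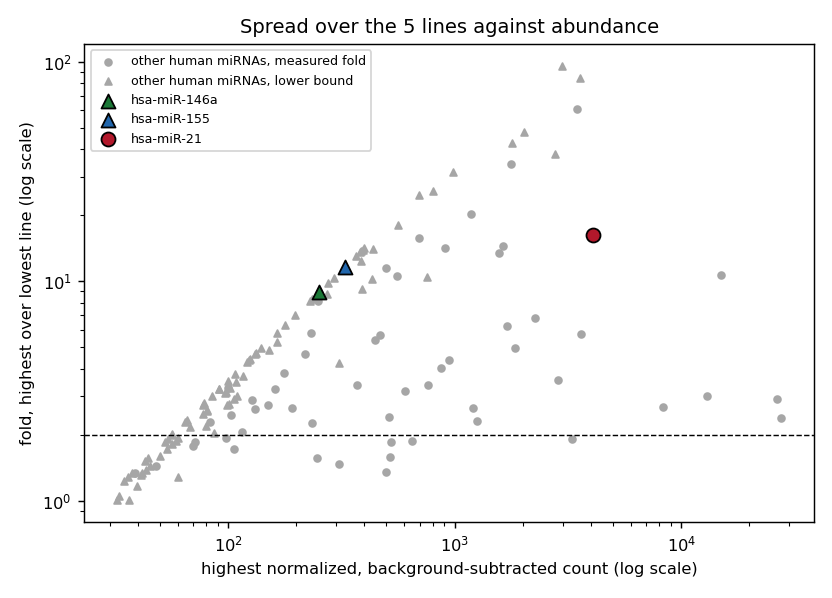
Fold between the highest and lowest of the 5 lines against the highest normalized, background-subtracted count, both on log scales, for the 143 human miRNAs with a value. Circles are measured folds, triangles are lower bounds, which grow with the level itself, and the dashed line marks 2-fold. A line under its threshold enters at it, so a circle can pass over a lower line and is then a lower bound too. Examples are miR-126 and let-7e, where Raji was lower than Jurkat after subtraction. miR-21, above background in all 5 lines, lies at 16.2, and miR-155 and miR-146a are bounds at 11.7 and 8.96.

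By pairs of lines, the share of human miRNAs past 2-fold in either direction is set beside the count among those of the 5 with a fold. Between Jurkat and Raji 29.2% passed, and miR-155, miR-146a and miR-21 all did, 3 of 3. Between Jurkat and U937 the share was 33.6% and again 3 of 3 passed. Both pairs set Jurkat, low for all 3, against a line that was high for miR-155 and miR-146a. Raji and U937 had 27.0% and 2 of 3, without miR-155, and Raji and K562 48.4% and 3 of 3. Among these, miR-146a between Raji and U937 fell under 2-fold with positive control scaling (172 and 140). With housekeeping scaling miR-21 between Raji and K562 did so too (2455 and 2433). For U937 and K562 it was 50.0% and 3 of 3, and for Jurkat and K562 53.0% and 1 of 1, miR-21. Counts of 1 to 3 cannot be set apart from these shares. Meg-01 differed in 48.9% from Jurkat with 2 of 2, in 43.0% from Raji with 3 of 3, in 41.4% from U937 with 2 of 3, and in 48.7% from K562 with 0 of 2. In this last pair miR-155 has only a lower bound of 1.38, with 2.29 before subtraction, so whether it passed is not settled. Calls of miR-21 near 2-fold turned with the scaling in pairs with Meg-01. In raw counts it was 2.21-fold (2.01 to 2.42) higher in Meg-01 than in U937, and Raji over Meg-01 was 1.78. With housekeeping scaling K562 and Meg-01 had 2433 and 985 subtracted counts of miR-21, more than 2-fold apart.

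Ratios of 2 miRNAs in the same line do not depend on scaling. Since probes can differ in efficiency, only the change of a ratio from line to line is read here. The raw ratio of miR-155 to miR-21 was 0.0961 (0.0842 to 0.109) in Raji, 0.376 (0.324 to 0.435) in U937, 0.103 (0.0709 to 0.145) in Jurkat and 0.0814 (0.0671 to 0.0981) in Meg-01. In K562, with miR-155 at background, it was 0.0202 (0.0137 to 0.0286). U937 thus stood apart with the most miR-155 relative to miR-21, while the intervals of Meg-01, Jurkat and Raji overlapped. The ratio in Jurkat is mostly background, since after subtraction it was 0.00311, against 0.0546 in Meg-01, 0.0801 in Raji and 0.342 in U937.

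For miR-146a to miR-21 the raw ratio was 0.0779 (0.0673 to 0.0898) in Raji, 0.218 (0.181 to 0.261) in U937, 0.151 (0.111 to 0.203) in Jurkat, 0.0310 (0.0226 to 0.0415) in Meg-01 and 0.0214 (0.0148 to 0.0300) in K562. After subtraction it was 0.0617 in Raji, 0.176 in U937, 0.0571 in Jurkat and 0.00270 in Meg-01. U937 was highest either way, while Jurkat lay above Raji in raw counts and not after subtraction. The raw ratio of miR-146a to miR-155 was 0.811 (0.672 to 0.979) in Raji and 0.581 (0.471 to 0.715) in U937, with intervals that overlap, and 0.769 and 0.514 after subtraction. In Meg-01, Jurkat and K562 one or both counts lay at background and the ratio carries little information.

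miR-590-5p, which shares the seed of miR-21, took a different course, with raw counts of 98 in Raji, 234 in U937, 349 in Jurkat, 195 in Meg-01 and 397 in K562. The ratio of miR-21 to miR-590-5p was 27.0 (22.0 to 33.3) in Raji, 2.88 (2.47 to 3.35) in U937, 1.0 (0.862 to 1.17) in Jurkat, 7.62 (6.56 to 8.89) in Meg-01 and 4.0 (3.58 to 4.48) in K562. None of the 5 intervals overlapped. After subtraction the ratio in Raji was larger, 49.8, since the threshold of 45.9 took away much of the 98 counts of miR-590-5p there. The other lines gave 3.20 in U937, 1.0 in Jurkat, 9.44 in Meg-01 and 4.29 in K562. Of these 2 miRNAs, miR-21 gained most on its relative in Raji and least in Jurkat.

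**Figure D3:**
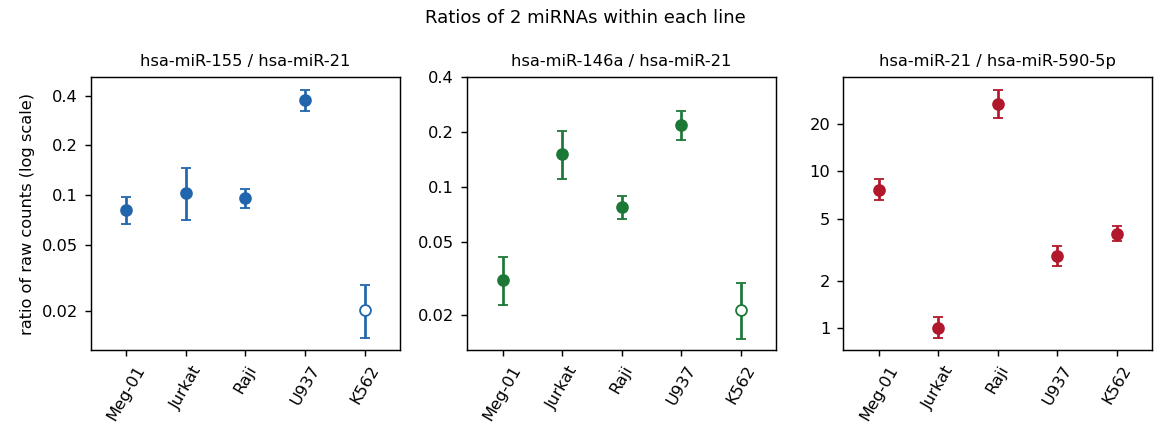
Ratios of raw counts (log scale) of miR-155 to miR-21, miR-146a to miR-21 and miR-21 to miR-590-5p in each line, with 95% intervals from the binomial distribution of the pair of counts; open circles mark a line where a miRNA of the pair is not above background. U937 is highest for the first pair of panels, at 0.376 and 0.218, and Raji for the last, at 27.0.

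The miRNAs with the most similar course over the 5 lines were sought among 156 other human miRNAs above background in at least 3 lines. Likeness is the root mean square difference of log2 normalized counts, each centered on its mean over the lines and held at the threshold where lower, so a smaller number means a closer course. For miR-146a the nearest were miR-29a at 0.34, miR-155 at 0.67 and miR-1307 at 0.72, against a median of 1.18 over all candidates. For miR-155 they were miR-29a at 0.64, miR-146a at 0.67 and miR-1307 at 1.02, with a median of 1.45. miR-155 and miR-146a thus were each other's second nearest, after the same miRNA. In K562 both were held at the threshold. The counting intervals of miR-155 in Jurkat and of miR-146a in Meg-01 covered it, so these values carry little information on their likeness. miR-29a was far above background everywhere, with raw counts of 1483 in Raji, 1040 in U937, 451 in Jurkat, 592 in Meg-01 and 380 in K562.

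For miR-21 the nearest were miR-193b at 0.67, miR-378 at 0.79 and miR-137 at 0.87, with a median of 1.24. miR-193b, with 30 to 85 raw counts, miR-137, with 30 to 57, and miR-1307 above, with 28 to 62, lay close to the thresholds. Raji has the highest normalized threshold (72.4, against 28.2 to 42.3 in the other lines), so a miRNA near background takes its highest value there by construction. miR-146b-3p, above background in no line, was accordingly 0.94 from miR-146a and 1.19 from miR-155, closer than their median candidates. miR-378, with 66 to 129 raw counts, was above background in every line.

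**Figure D4:**
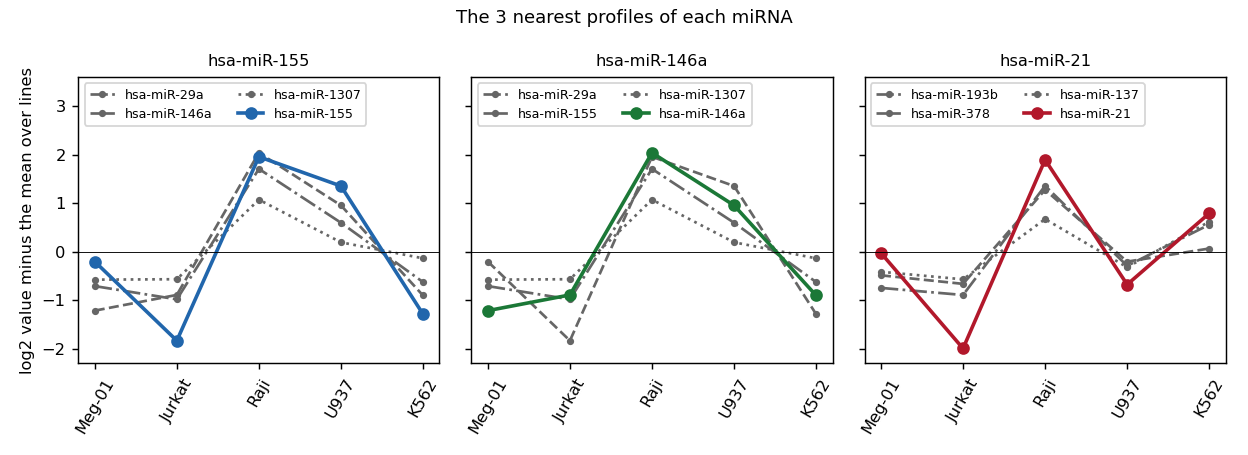
Log2 normalized counts minus their mean over the 5 lines for miR-155, miR-146a and miR-21 (colored) and the 3 nearest miRNAs of each (gray), values under the threshold held at it. miR-155 and miR-146a both peak in Raji and U937 with miR-29a, while miR-21 peaks in Raji and K562; with positive control or housekeeping scaling miR-155 is higher in U937 than in Raji, and without scaling the lines are nearly equal.

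Other miRNAs tied to Toll-like receptor and NF-kB signaling formed a list of 9, all on the panel. Above background were 5 of them in Meg-01, 7 in Jurkat and 4 each in Raji, U937 and K562, and Jurkat also had the largest share of all human features above background (35.0%). In Jurkat the intervals of miR-125b, miR-147 and miR-212 covered the threshold. So did those of miR-132 in Meg-01 and U937 and of miR-125b in K562. Of the 46 features for other viruses, 10 passed in Jurkat and 3 or 4 in each other line. miR-223 and let-7e passed in all 5 lines, and miR-147b and miR-187 in none. A fold could be given for 4, and all 4 passed 2-fold, with a median of 11.9 against the 75.5% and 3.24 of all human miRNAs. The folds of miR-9, miR-125b and miR-223 are lower bounds entered at their value. That of let-7e is Meg-01 over Jurkat, since Raji, lower after subtraction, enters at its threshold. Their courses differed from those of miR-155 and miR-146a. miR-9, which targets NFKB1, had raw counts of 157 in Raji, 240 in U937, 573 in Jurkat, 115 in Meg-01 and 31 in K562. miR-125b, a regulator of TNF, had 64, 34, 41, 560 and 36 in that order. Jurkat thus led for miR-9 and Meg-01 for miR-125b. miR-223, a myeloid miRNA that restrains inflammatory signaling, had 62, 2682, 732, 3269 and 1684, and let-7e 61, 149, 97, 260 and 163. Raji was the lowest line for both in raw counts and after subtraction. For let-7e Jurkat was lower in normalized counts (78.1 against 96.3) but not after subtraction (49.9 against 23.9). miR-132 had 36, 38, 69, 44 and 61, close to background. miR-147 and miR-212 passed the threshold in Jurkat alone, with 43 and 37 counts and intervals that covered it. Raji had 42 counts of miR-147, under its higher threshold of 45.9.

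Marker miRNAs were read as a check of the line labels. miR-142-3p, specific to hematopoietic cells, had 8151 raw counts in Raji, 11271 in U937, 32907 in Jurkat, 18315 in Meg-01 and 7436 in K562. miR-126, of megakaryocytes and progenitors, had 1954 in Meg-01 and 1482 in K562 against at most 99 elsewhere, and the erythroid miR-144 had 981 and 216 in the same lines against at most 31. Erythroid miR-451 was above background in those 2 lines too, with 129 and 59. The blood-cell marker was high in all lines, and the erythroid and megakaryocytic ones set Meg-01 and K562 apart from the rest. They did not divide these 2 by their labels, since erythroid miR-144 was higher in megakaryoblastic Meg-01 than in erythroleukemic K562 (727 against 264 normalized counts). Erythroid miR-486-3p, not among the markers read, went the other way and was highest in K562, at 133 subtracted counts. For miR-126 Meg-01 was the higher line in raw counts and K562 in normalized counts (1449 against 1812). miR-150, of mature lymphocytes, had 1030 counts in Jurkat and 21 in Raji, so this marker was not above background in the B-cell line. Myeloid miR-223, also among the markers, did not set monocytic U937 apart. Meg-01 was the higher line in raw counts (3269 against 2682) and U937 in normalized counts (2424 against 2798). The Epstein-Barr virus feature ebv-miR-BHRF1-2 had 296 counts in Raji and 12 to 28 in the other lines, and 16 of 34 features for that virus were above background in Raji against 5 to 9 elsewhere. Whether the virus or the state of differentiation had a part in the levels of miR-155, miR-146a and miR-21 in Raji was not tested, and with 1 B-cell line they cannot be told apart from the line itself.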

How the data were processed

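The authors deposited raw counts per probe for each line as read by the instrument (753 probes: 654 human, 80 viral, 5 housekeeping, 8 negative, 6 positive), and a table of background-subtracted signals. For the 652 human features with one, the deposited signals are the raw counts less 1 constant in each line, set to 0 where lower, and are unscaled. The study used assay kits v1 and v2, and which was used for the lines is not given in the sources used here. Scaling and thresholds followed the methods, with the 100 miRNAs taken by mean count over the 5 lines and the sample SD. Intervals are exact Poisson for counts, combined for folds, and Clopper-Pearson for ratios. Named miRNAs were the 5, those found to share their seeds, a list for Toll-like receptor and NF-kB signaling, and markers. The 3 nearest in course of each miRNA above background in at least 2 lines were named too. Matches on chromosome 8 were left out of the search for shared seeds. Members and lists were chosen with earlier results of these data known. Alternatives were 5 scalings, 4 thresholds, no subtraction and the deposited signals; a threshold without each line's highest negative control and shares past 2-fold over a fixed set of miRNAs were chosen after seeing the data, as were the ratios to miR-590-5p. Calculations used Python 3.11.15, numpy 2.4.6, scipy 1.17.1 and matplotlib 3.10.9, and were tested on simulated data.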

Additional observations from a re-analysis of the deposited data

How the results depend on the processing

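No paired analysis was possible because each line has 1 sample. No alternative turned the direction of Raji over Jurkat for miR-21, miR-155 or miR-146a. The number of the 25 values above background, 14 as reported, was 25 with the mean of the negative controls as threshold, 23 with a fixed minimum of 30 raw counts and 25 in the deposited signals. It was 17 with the highest negative control as threshold and 13 with the 95th percentile of other virus probes. Without the highest negative control of each line, a setting chosen after seeing the data, 21 values passed. The share of human miRNAs past 2-fold, 75.5% as reported, was 49.0% without subtraction and 48.2% in the deposited signals, where more miRNAs could be assessed (308 and 311 against 143). Over the same 143, also computed after seeing the data, it was 87.4% and 90.9%, so the lower shares come with the added miRNAs.

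The log2 fold of Raji over Jurkat was 4.01 for miR-21, and lower bounds of 3.54 for miR-155 and 3.16 for miR-146a. Without scaling it was 3.04, 2.57 and 2.19 in this order, with positive control scaling 3.28, 2.81 and 2.43, and with housekeeping scaling 3.04, 2.57 and 2.19. These changes follow from the factors of Raji and Jurkat alone. The mean of the negative controls as threshold gave a bound of 4.31 for miR-155 and a measured fold of 3.57 for miR-146a, and the fixed minimum bounds of 3.87 and 3.52. For miR-155 the 95th percentile of other virus probes gave a bound of 3.23 and no subtraction 3.79, a fold against a Jurkat count that cannot be separated from background. The deposited signals gave measured folds of 2.97 for miR-21 and 2.32 for miR-146a. The constant of the deposited signals differs from the negative control mean in Jurkat (16.25 against 22.75) and K562 (22.75 against 20.25). The constant of K562 equals the negative control mean of Jurkat; the cause was not tested.

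Depth limits what can be said of low counts. In Jurkat and K562 miR-155 had 36 and 32 raw counts, with intervals that covered the threshold, so a low level and none could not be separated.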
